A study of Mus musculus with 6 samples.

Results

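The Rab family of small GTPases was described gene by gene in mouse fetal liver blood progenitors that had received either a control hairpin RNA or a hairpin against Samd14. Members were the protein-coding genes whose symbol is Rab followed by a number and at most 1 letter, with at least 60 counts summed over the 6 libraries. Of 59 such symbols among 24376 gene identifiers, 50 met the minimum, and all 50 also passed the filter on low counts used for testing. Rab1a, Rab1b, Rab27a and Rab27b were singled out with earlier results of these data known, so their values are given as a description.

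Progenitors were isolated from the livers of C57BL/6 embryos at stage E14.5 and infected with retrovirus straight after isolation. One group of 3 libraries (control) received a control short hairpin RNA and the other group of 3 (shSamd14) a hairpin targeting Samd14, and no group was left uninfected. After 3 days of culture in StemPro-34 medium, 200000 cells negative for the erythroid surface proteins CD71 and Ter119 were taken per library. The labels name 1 hairpin per group and do not say whether libraries of a group came from separate cultures or animals, so the p-values below speak only of the variation among these samples, part of which may be technical.

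Each Rab protein marks a particular membrane of the cell. Loaded with GTP by an exchange factor (GEF) it recruits effectors that tether, move or fuse vesicles, and a GTPase-activating protein (GAP) returns it to the inactive form, which the chaperones GDI and REP carry through the cytosol. In blood cells Rabs are known for receptor recycling, transferrin uptake and the making and release of granules in platelets, mast cells and neutrophils.

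Libraries held 20584169 to 26462797 counts, and values below are CPM (counts relative to the library total, scaled by TMM factors) unless TPM, which also corrects for gene length, is named. Samd14 stood at 82.6 ± 1.04 CPM in the control libraries and 40.0 ± 1.64 CPM in those with shSamd14 (SD, n = 3). The log2 fold change was -1.05, with an SE of 0.06 and an adjusted p of 4.69e-07 from the quasi-likelihood test of edgeR, where p-values were adjusted by Benjamini-Hochberg over all 12670 genes tested. The progenitor receptor gene Kit was read at 570 ± 81.2 and 453 ± 27.4 CPM. Its libraries were at 656, 560 and 495 CPM in control and 473, 465 and 422 CPM with shSamd14, without overlap. Such a separation with shSamd14 below was seen in 10.2% of all genes tested. Tfrc, which encodes CD71, was present in the RNA of these CD71-negative cells at 933 ± 57.2 and 823 ± 48.0 CPM. The summed CPM of 12 neutrophil and monocyte markers was highest in replicate 3 of each group, at 6010 against 3690 to 3830 in the other control and 6140 against 4150 to 4330 in the other shSamd14 libraries. In bulk RNA, fewer cells of a type and less RNA per cell cannot be told apart.

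The member with the largest difference, Rab1a, holds 2 copies of a short word in its 3′ UTR that an earlier search over all genes of these data had picked out as more frequent in genes that rose. These sites are printed because the word is present in Rab1a and absent from Rab1b and Rab27b. Beside them is set 1 site from each of 5 other members that hold it, though Rab22a and Rab30 also hold 2 copies of TGATTAA. The low-count member Rab39 is added for the words picked out in genes that fell. Rab18, whose shSamd14 libraries all lay below the control libraries, also holds TGATTAA, but its site is not printed. The capitals mark CTGATTA or TGATTAA (joined as CTGATTAA where they overlap) in all but Rab39, and AAGTGTA or CAAGTGT in Rab39, with 10 flanking bases on each side. Sequences are from GENCODE M21 transcripts on GRCm38 (mm10) and read 5′ to 3′ along the transcript.
Rab1a, chr11:20225327-20225354, plus strand: attacactatCTGATTAAtagtttcttc
Rab1a, chr11:20225487-20225513, plus strand: ttaattcctaTGATTAAagggaaatag
Rab35, chr5:115646006-115646033, plus strand: gctgagtggaCTGATTAAccagtttgta
Rab11b, chr17:33744841-33744868, minus strand: cagttcctttCTGATTAAatctaaagcc
Rab22a, chr2:173703556-173703582, plus strand: tatcatttggTGATTAAaggaacatag
Rab23, chr1:33742490-33742516, plus strand: atgtactactTGATTAAaatttccaca
Rab30, chr7:92841174-92841201, plus strand: gagccatgttCTGATTAAattcttggtc
Rab39, chr9:53684716-53684742, minus strand: ataaattgcaAAGTGTAtctaactacc
Rab39, chr9:53684443-53684469, minus strand: aagcataataCAAGTGTtttgctggtt

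Across the family, 2 of 50 members had an adjusted p under 0.05 by edgeR's test, both higher in shSamd14 libraries: Rab1a, which acts in traffic from the endoplasmic reticulum (ER) to the Golgi, and Rab27b, which acts in granule release. Among all genes tested 2.58% passed in either direction, 1.32% higher and 1.26% lower. No member passed as lower in edgeR's test, nor by DESeq2 or limma. The limma fits covered 43 of the 50 members. Neither DESeq2 nor limma gave an adjusted p for Rab39, the member with the lowest log2 fold change. At an unadjusted p under 0.05, 4 members were higher and 3 lower, 7 of 50 against 15.0% of all genes tested. The 3 libraries of one group lay wholly outside those of the other for 12 members, against 20.7% of all genes. In 8 the shSamd14 libraries were above (10.5% of all genes) and in 4 below (10.2%). Since the members were proposed with these results known, nothing is read from these shares.

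The median log2 fold change of the 50 members was 0.02, beside 0.01 for all genes tested, and 27 members were above 0 and 23 below. The median absolute log2 fold change was 0.11 for members and 0.10 for all genes. Most members thus lay close to 0. The summed TPM of the family without Rab1a was 1810, 1860 and 1910 in control and 1810, 1880 and 1920 in shSamd14 libraries, ranges that overlapped.

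**Figure D1:**
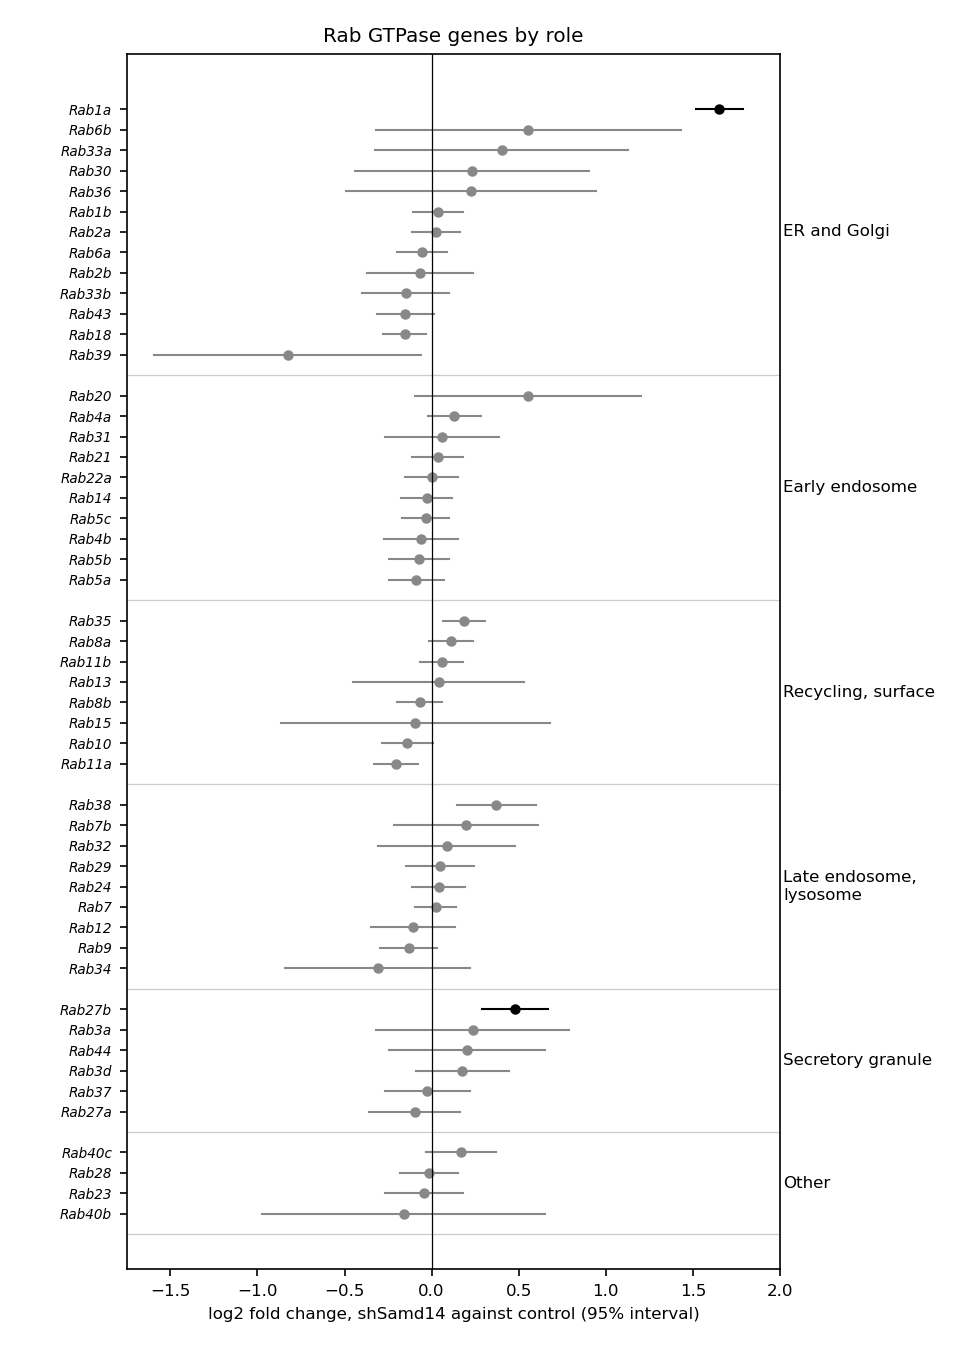
Log2 fold change (shSamd14 over control, edgeR) of each of the 50 members, grouped by the membrane they act on, with the 95% interval as a bar. Rab1a at 1.65 stands apart, Rab27b at 0.48 is the other member that passed the adjusted p of 0.05, and most members lie close to 0 with intervals that widen for genes of few counts.

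Of 13 members that act at the ER and Golgi, 1 rose and none fell, with 1 higher and 2 lower at an unadjusted p under 0.05 in edgeR's test and none lower by DESeq2 or limma. The limma fits tested 8 of the 13. Rab1a, required for vesicle traffic from the ER to the Golgi and for early steps of autophagy, was read at 58.6, 55.6 and 59.8 CPM in control libraries and 183, 191 and 172 CPM with shSamd14. Every shSamd14 library lay far above every control library, and the spread within each group was small beside the gap. Means were 58.0 ± 2.17 and 182 ± 9.71 CPM (SD, n = 3), 3.14-fold higher, or 1.65 on the log2 scale (SE 0.06, 95% interval 1.52 to 1.79, adjusted p = 2.11e-09 by edgeR). Rab1a had the smallest p of all 12670 genes and the fourth highest rise, and 6 genes had a larger absolute log2 fold change.

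Rab1b, whose protein does the same work as Rab1a at the Golgi, was read at 84.2, 96.8 and 98.0 CPM in the control libraries and 97.7, 92.3 and 96.4 CPM in those with shSamd14. The groups overlapped, and the log2 fold change was 0.04 (SE 0.07, 95% interval -0.11 to 0.18, adjusted p = 0.848 by edgeR). The interval leaves out a rise of the size seen for Rab1a. The ratio of Rab1a to Rab1b counts within a library, which needs no scaling between libraries, was 0.695, 0.574 and 0.610 in control and 1.88, 2.07 and 1.79 in shSamd14 libraries. Rab1b was thus the more counted of the pair in every control library and Rab1a in every shSamd14 library. The log2 ratio differed by 1.61 between groups, with an exact two-sided permutation p of 0.1, the smallest that 3 libraries against 3 allow. On the TPM scale, where levels of the pair can be compared per length, Rab1a moved from 45.3 ± 2.88 to 150 ± 5.75 TPM and Rab1b from 85.5 ± 4.49 to 88.5 ± 3.13 TPM.

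The coding sequences of the pair were 76.1% identical in a global alignment. No stretch of 50 bases was shared between those of their annotated transcripts that the deposited data list. Rab1a lies on chromosome 11 at 20201432 to 20226856 on the plus strand and Rab1b on chromosome 19. Rab1a made up 2.31% to 2.47% of the family's summed TPM in control and 7.02% to 7.71% in shSamd14 libraries. In the order of TPM levels within the family it stood at rank 16 in control and rank 4 in shSamd14 libraries.

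**Figure D2:**
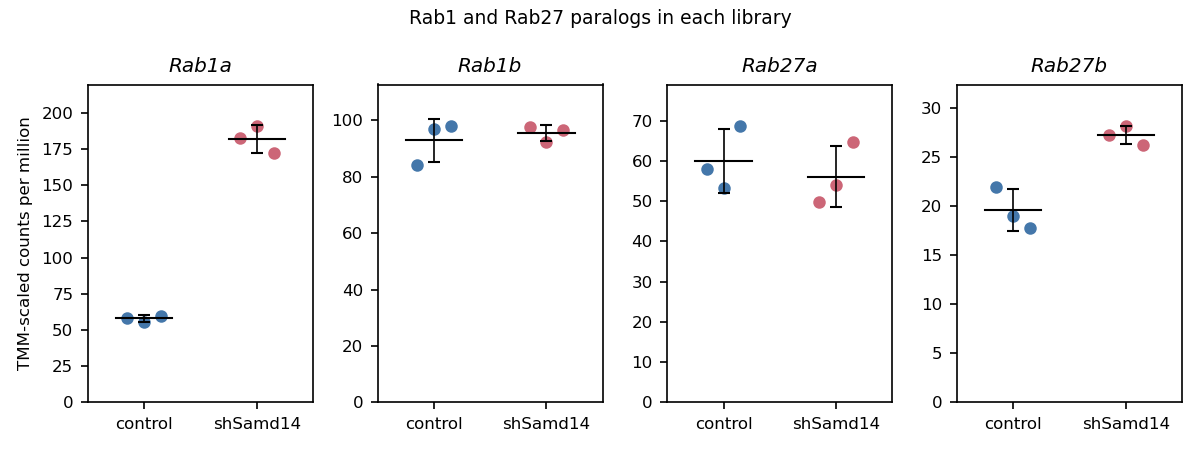
CPM of Rab1a, Rab1b, Rab27a and Rab27b in each of the 6 libraries (points), with the group mean as a line and the SD as a bar. Rab1a runs from 55.6 to 59.8 in control and from 172 to 191 in shSamd14 libraries and Rab27b from 17.8 to 22.0 and 26.3 to 28.2, while the groups overlap for Rab1b and Rab27a.

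The other ER and Golgi members showed no such shift. Rab18, which acts at the ER and lipid droplets, was read at 144, 141 and 143 CPM in control libraries and 124, 135 and 125 CPM with shSamd14, so that the groups did not overlap. Its log2 fold change was -0.16 (SE 0.06, adjusted p = 0.209 by edgeR). Rab39, at 0.628, 0.740 and 0.666 CPM against 0.239, 0.335 and 0.555 CPM, was also lower in all 3 shSamd14 libraries, at levels where 3 counts are worth 0.113 to 0.146 CPM. Its log2 fold change of -0.83 had an SE of 0.36 and an adjusted p of 0.285 by edgeR. Rab43, which acts in the Golgi stacks, stood at 40.2 ± 2.11 and 36.1 ± 2.86 CPM (log2 fold change -0.15, adjusted p = 0.378 by edgeR). Rab2a, which tethers Golgi vesicles, was at 67.5 and 68.8 CPM on average and its paralog Rab2b at 5.52 and 5.28. Rab6a, which serves retrograde traffic through the Golgi, was at 142 and 136 CPM, and Rab6b was between 0.291 and 1.12 CPM. Together the 13 ER and Golgi members summed to 556, 548 and 572 CPM in control libraries and 648, 690 and 649 CPM with shSamd14. Without Rab1a the sums were 497, 492 and 512 against 465, 499 and 477 CPM, and the groups overlapped.

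Of 6 members tied to secretory granules, Rab27b rose and none fell, with 1 higher and 0 lower at an unadjusted p under 0.05 in edgeR's test and none lower by DESeq2 or limma. Rab27b, which acts in dense granule release by platelets and in mast cell secretion, was read at 22.0, 19.0 and 17.8 CPM in the control libraries and 27.3, 28.2 and 26.3 CPM in those with shSamd14. The groups did not overlap, though the gap between the nearest libraries was of the size of the spread within the control group. The log2 fold change was 0.48 (SE 0.09, 95% interval 0.29 to 0.67, adjusted p = 0.0102 by edgeR). Without shSamd14 replicate 2 it was 0.45 with an adjusted p of 0.0731 by edgeR, no longer under 0.05.

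Rab27a, which brings lytic granules and melanosomes to the plasma membrane, was read at 58.0, 53.3 and 68.7 CPM in the control libraries and 49.8, 54.0 and 64.6 CPM in those with shSamd14. The groups overlapped (log2 fold change -0.10, SE 0.12, 95% interval -0.36 to 0.16, adjusted p = 0.757 by edgeR). The ratio of Rab27b to Rab27a counts was 0.379, 0.356 and 0.259 in control and 0.548, 0.521 and 0.407 in shSamd14 libraries. In both groups replicate 3 had the lowest ratio, and every shSamd14 ratio was above every control ratio. The log2 ratio differed by 0.58 (exact two-sided permutation p = 0.1, the smallest possible). The coding sequences of Rab27a and Rab27b were 67.7% identical, and their transcripts that the deposited data list shared no stretch of 50 bases.

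Megakaryocyte markers moved in the same direction as Rab27b. All 14 of the listed markers had a log2 fold change above 0, and 12 had shSamd14 libraries above control libraries, beside 10.5% of all genes tested. In edgeR's test 5 rose past the adjusted p of 0.05, beside 1.32% of all genes. Among them was Pf4, a platelet chemokine (49.2 ± 3.99 to 66.1 ± 6.20 CPM). Their summed level was 470, 417 and 395 CPM in control libraries and 518, 539 and 533 CPM with shSamd14. Rab27b as a share of that sum was 4.68%, 4.56% and 4.51% in control and 5.27%, 5.23% and 4.93% in shSamd14 libraries. Mast cell and basophil markers summed to 249 to 294 CPM in control libraries and 252 to 331 CPM with shSamd14, with Tpsab1 and Mcpt4 at 0, and none of the 7 tested passed the adjusted p (1 higher and 1 lower at an unadjusted p under 0.05 in edgeR's test, and none called by DESeq2 or limma). The part of either cell type in the difference of Rab27b was not tested.

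The other granule members gave values that overlapped between groups. Rab44, a large Rab with an EF-hand domain known from mast cells, ran from 108 to 138 CPM in control libraries and from 116 to 170 CPM with shSamd14. Rab3d, an exocytosis Rab of secretory cells, had means of 19.0 and 21.5 CPM, Rab37 of 8.45 and 8.30 CPM and Rab3a, best known from synaptic vesicles, of 1.24 and 1.45 CPM.

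No member of the 10 at early endosomes passed the test in either direction, and 0 had an unadjusted p under 0.05 in edgeR's test. DESeq2 called none of them, nor did limma among the 9 it tested. Their summed level lay between 670 and 680 CPM in all 6 libraries. Rab5c, one of 3 Rab5 paralogs that drive fusion of early endosomes, was read at 187, 200 and 200 CPM in control libraries and 203, 179 and 191 CPM with shSamd14 (log2 fold change -0.04, adjusted p = 0.849 by edgeR). Rab5a averaged 55.2 and 52.0 CPM and Rab5b 56.0 and 53.1 CPM, again with overlapping groups. Rab4a, which serves fast recycling of receptors such as that for transferrin, was at 59.3, 60.9 and 57.6 CPM in the control libraries and 71.1, 62.8 and 60.9 CPM in those with shSamd14. The nearest libraries of the groups both rounded to 60.9 CPM, without overlap (log2 fold change 0.13, adjusted p = 0.416 by edgeR), while its paralog Rab4b overlapped at means of 19.0 and 18.2 CPM. Rab14, Rab21, Rab22a and Rab31, which sort endosomal cargo, had log2 fold changes of -0.03, 0.04, 0.00 and 0.06.

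Among 8 members at recycling endosomes and the cell surface, none passed the adjusted p, and 1 was higher and 1 lower at an unadjusted p under 0.05 in edgeR's test. DESeq2 and limma called none of them. Rab11a, the central Rab of the recycling endosome, was read at 95, 93.9 and 93.2 CPM in the control libraries and 81.7, 85.0 and 78.5 CPM in those with shSamd14. The groups did not overlap in CPM (log2 fold change -0.20, SE 0.06, adjusted p = 0.0937 by edgeR). In TPM they did, at 186 to 208 in control and 177 to 191 in shSamd14 libraries. Its paralog Rab11b lay slightly the other way, at 89.9, 89.2 and 88.3 against 94.3, 90.6 and 93.3 CPM (log2 fold change 0.06, adjusted p = 0.690 by edgeR). Their coding sequences were 75.2% identical.

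Rab35, which returns endosomal cargo to the plasma membrane and acts on actin, was read at 85.6, 88.5 and 86.0 CPM in the control libraries and 99.2, 101 and 96.1 CPM in those with shSamd14. All shSamd14 libraries were above, by 0.19 on the log2 scale (SE 0.06, adjusted p = 0.114 by edgeR). Rab8a, a Rab of polarised export, stood at 102 ± 4.03 and 110 ± 1.66 CPM (log2 fold change 0.11, adjusted p = 0.403 by edgeR) and its paralog Rab8b at 173 and 165 CPM. Rab10, which carries receptors and transporters to the surface, was at 176 ± 8.71 and 160 ± 13.3 CPM (log2 fold change -0.14, adjusted p = 0.368 by edgeR).

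Of 9 members at late endosomes, lysosomes and related organelles, none passed the adjusted p, with 1 higher and 0 lower at an unadjusted p under 0.05 in edgeR's test. DESeq2 and limma called none of them. Rab7, which drives late endosome and lysosome fusion, was read at 230, 238 and 237 CPM in control libraries and 242, 235 and 239 CPM with shSamd14, overlapping groups with a log2 fold change of 0.02 (adjusted p = 0.890 by edgeR). Rab38, known with its paralog Rab32 for the making of melanosomes and platelet dense granules, was at 12.4, 15.9 and 15.4 CPM in the control libraries and 19.0, 17.6 and 20.1 CPM in those with shSamd14. Its groups did not overlap, and the log2 fold change of 0.37 (SE 0.11) had an adjusted p of 0.0859 by edgeR. With no filter on low counts the adjusted p was 0.0295 by edgeR. Rab38 passed in 2 of 15 alternatives. With a library left out it passed in 0 of 6 fits, with an adjusted p of up to 0.353 by edgeR. Rab32 overlapped, at means of 20.4 and 21.7 CPM. Rab9, which returns receptors from late endosomes to the Golgi, averaged 36.2 and 33.1 CPM. The 4 members outside these roles, Rab23, Rab28, Rab40b and Rab40c, had log2 fold changes between -0.16 and 0.17, and none had an unadjusted p under 0.05 in edgeR's test or was called by DESeq2 or limma. The limma fits tested 3 of these 4.

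Per length, the levels of the members spanned a wide range. In control libraries 4 members were at 100 TPM or more, 28 between 10 and 100, 11 between 1 and 10 and 7 under 1. Rab11a was highest at 197 ± 11.3 TPM, followed by Rab7 at 188 ± 3.80, Rab5c at 172 ± 1.52 and Rab18 at 106 ± 4.51 TPM (SD, n = 3). The lowest, Rab6b, was at 0.190 ± 0.108 TPM. Of the 49 pairs of neighbours in this order, 13 had control ranges that did not overlap, so that most neighbours did not differ beyond their spread. Rab11a and Rab7 overlapped, and Rab1a overlapped Rab44 above it and Rab9 below it. The 4 most abundant members thus came from the recycling, late endosome, early endosome and ER and Golgi groups.

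**Figure D3:**
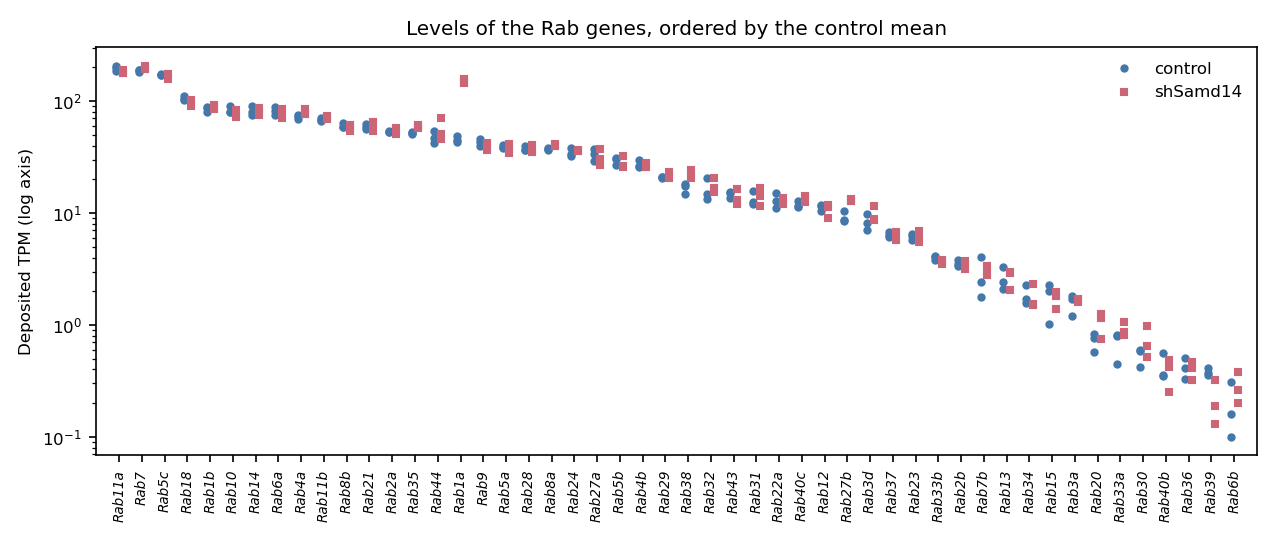
Deposited TPM of each of the 50 members in each control (circles) and shSamd14 (squares) library on a log axis, ordered by the control mean. Rab11a, Rab7 and Rab5c lead in both groups, and Rab1a is the member that stands apart between groups, at means of 45.3 and 150 TPM.

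Just inside the minimum of 60 summed counts were Rab40b (64.02), Rab39 (75) and Rab33a (77), and just outside were Rab25 (57), Rab26 (54.89) and Rab19 (32). Some members share a locus with another gene: Rab6a overlaps Mrpl48, Rab5a Pp2d1, Rab24 Prelid1 and Rab37 Cd300lf on the opposite strand, and Rab4a overlaps Gm20388 on the same strand. Whether counting used strand is not given in the sources used here, so reads of such pairs may be shared.

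Members also differed in how much they varied between libraries of one group. Among members with a mean of at least 10 CPM, the largest coefficients of variation within groups were those of Rab32 (19.1%), Rab44 (17.8%), Rab31 (16.3%), Rab3d (14.9%) and Rab27a (13.4%). This ranking was chosen after the values were seen. All 5 were highest in replicate 3 of both groups, the libraries with the highest sums of neutrophil and monocyte markers, of which 0 of 12 passed the adjusted p between groups (0 at an unadjusted p under 0.05 in edgeR's test, and none called by DESeq2 or limma). The part of those cells in the spread was not tested. Without both replicate 3 libraries, a comparison added after seeing the data, Rab1a (log2 fold change 1.71, adjusted p = 2.61e-10 by edgeR) and Rab27b (0.43, adjusted p = 0.0257 by edgeR) were still the members called.

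**Figure D4:**
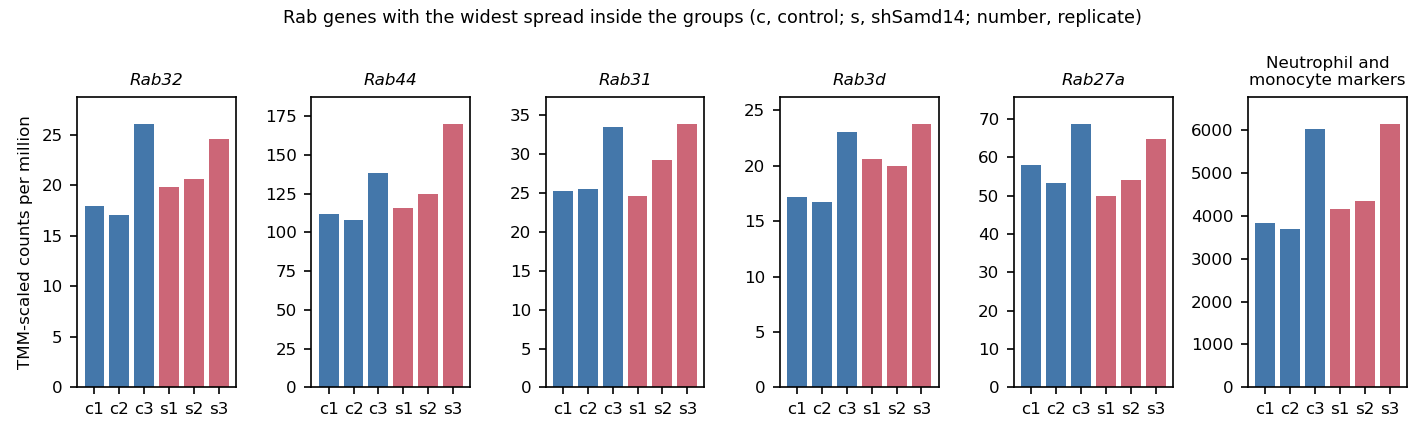
CPM in each control (c) and shSamd14 (s) library (bars, numbered by replicate) for the 5 members that varied most within groups and, in the last panel, for the sum of 12 neutrophil and monocyte markers. Replicate 3 is the highest library of its group for each of Rab32, Rab44, Rab31, Rab3d and Rab27a, as it is for the marker sum.

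The deposited gene length is an average over a gene's transcripts weighted by their estimated shares, and so moves when the estimated mix of transcripts does. It was the same in all 6 libraries for 24 of 50 members and varied by at least 1.1-fold for 11. The groups did not overlap for 5 members (Rab3a and Rab4a above, Rab1a, Rab30 and Rab34 below in shSamd14 libraries), against 6.02% of all genes tested. For Rab4a the means were nearly equal, at 1393.8 bases in control and 1396.4 in shSamd14 libraries. Rab3a, Rab30 and Rab34 had only 11 to 38 counts a library, from which a mix of transcripts is poorly estimated. For Rab1a it was 2105.36, 2145.38 and 2201.95 bases in control and 2017.90, 2075.04 and 2065.35 bases in shSamd14 libraries, the shSamd14 libraries all being shorter. The tables list 4 of 6 annotated Rab1a transcripts, of 2827, 2657, 2626 and 1200 bases. Over the 8 alternatives fitted on all 6 libraries the log2 fold change of Rab1a ran from 1.65 to 1.73. The 3 that correct for length gave the upper values, 1.72 with the effective length offset and 1.71 and 1.73 with limma on TPM, while the other 5 gave 1.651 to 1.655. For Rab27b the lengths ran from 3326.11 to 3627.67 bases in control and from 3475.50 to 3563.37 bases in shSamd14 libraries and overlapped.

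The words shown above were counted in the longest annotated 3′ UTR of every member and of 11870 tested genes, along the transcript strand only. CTGATTA or TGATTAA, which overlap by 6 bases, occurred in 7 members (14.0%), Rab1a, Rab11b, Rab18, Rab22a, Rab23, Rab30 and Rab35, and in 14.9% of all genes. CAAGTGT or AAGTGTA, which also overlap by 6 bases, occurred in 8 members (16.0%), Rab7, Rab7b, Rab15, Rab18, Rab23, Rab28, Rab30 and Rab39, and in 22.7% of all genes. Neither share was above that of all genes, without correction for UTR length. The median UTR was 1963 bases in members and 1375 in all genes. Members with the first pair had a median of 5184 bases and those without it 1496. The 4 members with the first pair only had a median log2 fold change of 0.12, from 0.00 for Rab22a to 1.65 for Rab1a, beside 0.04 for all genes of that class. The 5 with the second pair only had a median of -0.02 beside -0.04, the 3 with both -0.05 beside -0.02, and the 38 with neither 0.03 beside 0.01. Over all genes, 71 of 1095 with the first pair only were called higher and 4 lower. The counts were 13 and 78 of 2023 with the second only, 28 and 13 of 677 with both, and 54 and 62 of 8075 with neither. The words were picked out from these same data, so these counts are no test.

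Of the 7 members with CTGATTA or TGATTAA, 3 (Rab1a, Rab35 and Rab11b) had all their shSamd14 libraries above the control libraries, beside 10.5% of all genes tested. In Rab18 they were all below, and in Rab22a, Rab23 and Rab30 the groups overlapped. As annotated, the word of Rab18 lies only in a transcript, with a UTR of 5774 bases, that the deposited data do not list. The deposited length of Rab18 was 2257 bases, though its listed transcripts hold only 1135 different stretches of 50 bases in GENCODE M21. Whether the transcript that was counted holds the word thus cannot be told. Of the 7, Rab1a alone passed the adjusted p of 0.05 in edgeR's test. Rab22a, with 2 copies of TGATTAA in a UTR of 6492 bases, had a log2 fold change of 0.00. Rab30, with 2 copies in a UTR of 8596 bases, had a log2 fold change of 0.23. In Rab1a the 2 copies lie 492 and 652 bases into a UTR of 2011 bases, and the 1200-base transcript, with a UTR of 619 bases, holds the first. Rab1b, Rab27a and Rab27b hold none of the 4 words. The words came from a search on these data that included these genes, so these counts describe the members and test nothing, and a match is not a site shown to be used.

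**Figure D5:**
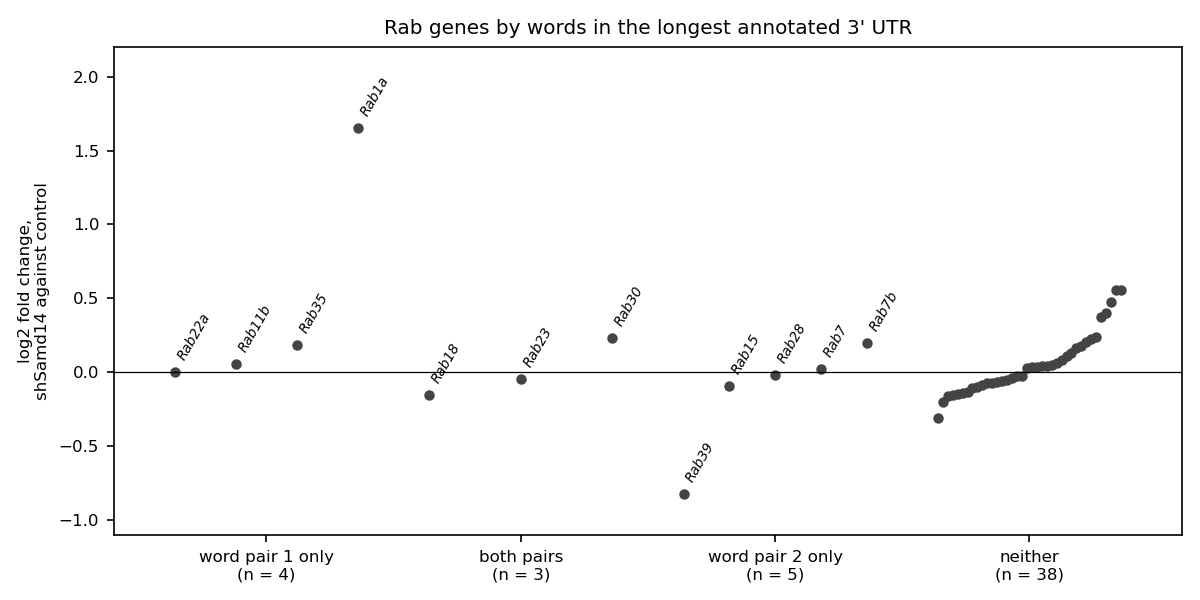
Log2 fold change (shSamd14 over control) of the 50 members by the words in their longest 3′ UTR (CTGATTA or TGATTAA only, both pairs, CAAGTGT or AAGTGTA only, or neither), 1 point a member, ordered by value within a class. Rab1a at 1.65 lies apart from the other 3 members of its class, and Rab39 at -0.83 is the lowest member.

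Genes that load, unload and carry Rab proteins were set beside the family from lists written with earlier results known. Of 195 tested, 2 rose and 5 fell, beside 1.32% and 1.26% of all genes. Of 15 genes for the membrane cycle (REPs, GDIs, geranylgeranyl transferase and related factors), Chm, which encodes the escort protein REP1 that presents new Rabs for prenylation, fell. It was read at 35.9, 35.5 and 37.4 CPM in the control libraries and 27, 27.7 and 25.3 CPM in those with shSamd14 (log2 fold change -0.44, SE 0.07, adjusted p = 0.0044 by edgeR). Every shSamd14 library was below every control library, and the call held without any single library (adjusted p at most 0.0223). Its paralog Chml, encoding REP2, was at 8.42 ± 0.366 and 8.74 ± 0.369 CPM (adjusted p = 0.872 by edgeR).

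None of the 14 subunits of the TRAPP complexes, which hold the exchange factor of Rab1, passed in edgeR's test (0 higher and 2 lower at an unadjusted p under 0.05) or was called by DESeq2 or limma, and their median log2 fold change was 0.01. The smallest p was that of Trappc13, at 54.0 ± 3.33 and 47.1 ± 1.77 CPM (log2 fold change -0.20, adjusted p = 0.174 by edgeR). Among 38 other exchange factors, Dennd4a (200 ± 22.8 to 158 ± 5.24 CPM, adjusted p = 0.023), whose protein is a GEF of Rab10, and Dennd5b (8.65 ± 0.643 to 5.26 ± 1.08 CPM, adjusted p = 0.0208 by edgeR) fell. Among 39 tested GAPs and relatives, Evi5, whose protein has been described as a GAP of Rab11, fell from 35.0 ± 2.44 to 27.9 ± 1.60 CPM (adjusted p = 0.0415 by edgeR). Without control replicate 1 the adjusted p was 0.0936 for Dennd4a and Dennd5b and 0.191 for Evi5 by edgeR. Of the 6 fits that each left out 1 library, the call was lost in 3 for Dennd4a, 3 for Dennd5b and 5 for Evi5.

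Among 46 tested effectors, Exoc6, an exocyst subunit that binds Rab11 and is mutated in the hemoglobin-deficit mouse, rose from 86.8 ± 1.32 to 107 ± 5.92 CPM (log2 fold change 0.30, adjusted p = 0.0165 by edgeR). Without shSamd14 replicate 2 the adjusted p was 0.101 by edgeR, and the call was lost in 4 of the 6 fits with a library left out. Among 43 genes of ER and Golgi coats, tethers and SNAREs, Ykt6, a SNARE, fell from 98.9 ± 5.07 to 80.6 ± 1.74 CPM (log2 fold change -0.30, adjusted p = 0.0175 by edgeR, and 0.0765 without control replicate 2). The call of Ykt6 was likewise lost in 4 of the 6 fits with a library left out. Kdelr3, a receptor that returns ER proteins, was called higher at 0.145, 0.218 and 0.166 CPM against 0.479, 0.712 and 0.518 CPM (adjusted p = 0.0488 by edgeR). Its control values are close to what 3 counts are worth, and the call was lost when any single library was left out (adjusted p 0.0706 to 0.203). The summed level of the coat genes was 4960 to 5070 CPM in control libraries and 4950 to 5000 CPM with shSamd14, overlapping ranges. In limma's fits on TPM, 1 effector was called higher and 1 membrane cycle gene lower, and 0 in the other 4 lists. Those fits tested 42 effectors, 34 other exchange factors, 37 GAPs and relatives and 41 coat genes. DESeq2 called 0 coat genes higher, so not Kdelr3, and 2 lower. It gave no adjusted p for Rab39, also of few counts, and whether it gave one for Kdelr3 was not checked. DESeq2 called 1 other exchange factor higher and 2 lower, 1 effector higher and 1 lower, and 1 GAP and 1 membrane cycle gene lower.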

How the data were processed

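RNA of 6 libraries was sequenced by the submitters, and the tools in the submitters' processing notes are RSEM 1.2.15, Bowtie 1.0.1 and CASAVA 1.8.2, with the mouse build mm10. The sources used here do not give read length, strand setting or annotation release. Per the file headers, the authors deposited for each gene and library an RSEM expected count, a TPM and an FPKM value, and a gene length in bases that RSEM weights over transcripts. FPKM was used only to check TPM.

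Expected counts were rounded and tested with edgeR 4.0.16 (quasi-likelihood, TMM scaling, filterByExpr, R 4.3.3), 3 shSamd14 against 3 control libraries, with Benjamini-Hochberg adjustment over 12670 genes and a threshold of 0.05. SE is the absolute log2 fold change over the square root of F. Intervals are 95%. Symbols came from the reference annotation for 23580 of 24376 identifiers. The script was tested on simulated counts. DESeq2 1.42.0, limma 3.58.1 on log2(TPM + 1) and log2(TPM + 0.1), other filters and scalings, a replicate block and leaving out libraries were alternatives.

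Members, lists and words were chosen with earlier results of these data known. Genes named were those called, the Rab1 and Rab27 pairs, the 6 highest by mean TPM, the 3 smallest p in each direction among the rest, members next to the count minimum, numbered paralogs, and in each other list those called or with the smallest p. Coding sequences were aligned with Biopython 1.88. Protein features were planned but no protein table was used here. Libraries of a group differed by more than sampling noise (chi-square per gene at least 5.76), so each counted once.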

Additional observations from a re-analysis of the deposited data

How the results depend on the processing

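Of 292 alternative values, 271 kept their direction and side of the threshold or moved little. Rab1a stayed past the threshold in all 15 alternatives (log2 fold change 1.61 to 1.73), and Rab27b in 14 of 15. An adjusted p of 0.01 left 1 member called higher, and leaving out each library in turn gave 1 to 2 higher and 0 lower. With no filter and with the replicate block 3 members were called higher, Rab38 being added (adjusted p 0.0295 and 0.0216). Leaving out each library gave 0 to 1 pathway genes higher and 1 to 5 lower. The deviations of same-numbered libraries from their group means correlated at -0.183, 0.256 and 0.47, and control replicates 1 and 2 each correlated best with another number, so the numbers were not taken to pair the libraries. The replicate block gave 4 pathway genes higher and 8 lower and 682 genes called in place of 327, and the exact sign-flip p of both log2 ratios was 0.25, the smallest possible. The log2 ratio of Rab1a to Rab1b ran from 1.55 to 1.69 and that of Rab27b to Rab27a from 0.41 to 0.71 over libraries left out, and the median of members from -0.02 to 0.03. With a library left out, values near 0 changed sign for Rab1b (-0.034 without control replicate 1, highest 0.069), Rab27a (0.006 without control replicate 3, lowest -0.215) and Rab5c (0.009 without shSamd14 replicate 2, lowest -0.091), and the cause was not tested. Over all genes, 488 were called with no filter, 426 by DESeq2, 168 and 170 by limma on TPM, and 128 to 283 with a library left out. The UTR words were in 6 and 7 members when only transcripts that the deposited data list were read in their GENCODE M21 form. This alternative was added after seeing the data. Rab18 was the member lost for both pairs, though its deposited length of 2257 bases does not match its listed transcripts in GENCODE M21. Precision is limited by 3 libraries a group, and for the 7 members under 1 TPM by few counts.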

Other observations

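Of the 9 family symbols under the minimum, Rab42 (31.99 summed counts), Rab3b (19), Rab39b (18), Rab17 (16), Rab3c (0.46) and Rab9b (0) were the lowest. Hepatocyte markers summed to 24.5 to 47.6 CPM in control and 20.2 to 29.9 CPM in shSamd14 libraries, with Serpina1a at 0. Erythroid markers summed to 3530 to 5380 CPM in control and 5370 to 6380 CPM in shSamd14 libraries, and none of 13 passed the adjusted p of 0.05 in edgeR's test (2 higher and 1 lower at an unadjusted p under 0.05, and none called by DESeq2 or limma). Of these 13, 10 had a log2 fold change above 0, and 3 had shSamd14 libraries above control libraries, beside 10.5% of all genes. Their median log2 fold change was 0.42, beside 0.37 for the megakaryocyte markers. Progenitor markers, Kit among them, summed to 1170 to 1320 CPM in control and 1120 to 1150 CPM in shSamd14 libraries, without overlap. None of 8 passed the adjusted p in edgeR's test, with 1 higher and 2 lower at an unadjusted p under 0.05. DESeq2 called 1 of them lower and limma none. The part of these cells in the values of the Rab genes was not tested.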
